A study of Mus musculus with 14 samples.

Results

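Aminoacyl-tRNA synthetases, the enzymes that load amino acids onto their tRNAs, and the scaffold proteins that hold some of them together were followed in mouse erythroid progenitor cells. Members were taken by name from the array's annotation, as each probe set that names 1 gene alone whose symbol is an amino acid letter followed by ars, ars1, ars2 or arsl, together with Eprs, Qars, Farsa, Farsb, Aimp1, Aimp2 and Eef1e1. This gave 76 of 45037 probe sets, for 38 of 18193 named genes. All 76 were tested, with no filter on low values. Of the 38 genes, 19 encode cytosolic enzymes (40 probe sets), 16 mitochondrial enzymes (32 probe sets) and 3 scaffold proteins (4 probe sets). A probe set that names Aars together with Exosc6, and Tarsl2, lie outside the rule.

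RNA was measured on 14 Affymetrix mouse arrays, 1 per sample. Cells came from the bone marrow of wild-type C57Bl/6 female mice of 8 to 12 weeks, expanded in culture. The 4 groups were stage E2 cells with EPO (3 arrays) and without EPO (3 arrays), taken at day 3.5 as Kit-depleted CD71-positive cells, and stage E1 cells with EPO (4 arrays) and without EPO (4 arrays), taken as Kit-positive CD71-positive cells at day 3 according to the deposited record. All cells were depleted of lineage-positive cells and held for 5.5 h without cytokines. EPO was then given at 4 U/mL for 90 min, while unchallenged cells received none, so that all groups share the cytokine withdrawal. The labels call the samples biological replicates.

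A tRNA carries 1 kind of amino acid to the ribosome, and each synthetase recognizes its own amino acid and tRNAs. Several cytosolic synthetases form the multi-synthetase complex with scaffold proteins, others work free in the cytosol, and a separate nuclear-encoded set serves the protein synthesis of mitochondria. The transcription factor ATF4, made when the translation factor eIF2 is phosphorylated, is known to raise many cytosolic synthetase genes together with genes of amino acid supply. In the erythroid lineage that phosphorylation is known to be carried out by a haem-regulated kinase, and globin production makes heavy use of charged tRNAs.

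The files give log2 values from which 1 constant per probe set was subtracted on all arrays. They show differences between arrays but no levels, so every value below is a centred log2 value or a log2 difference. The median over all probe sets lay between -0.023 and 0.031 on the 14 arrays, and the median SD between replicates was 0.0343 in E2 with EPO, 0.0317 in E2 without, 0.0729 in E1 with EPO and 0.0934 in E1 without. The stage labels were matched by Kit, the receptor used in the selection (log2 difference of -3.98, E2 minus E1, without EPO), and by the haem synthesis gene Alas2 (4.22). Myeloid markers differed between the stages: the mean of 7 such genes (Itgam, Csf1r, Mpo, Elane, Prtn3, S100a8 and S100a9) lay between -0.14 and -0.09 on the 6 stage E2 arrays and between 5.94 and 6.59 on the 8 stage E1 arrays. Whether any marker was at background cannot be read from centred values.

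Promoters of 6 members are shown, since members differ in the motifs they hold there: the 4 genes with the smallest p-value for EPO in stage E1 and 2 mitochondrial members (Rars2 and Aars2) with the largest. Sequences are RefSeq's, from the build GRCm38.p6, written 5′ to 3′ on the gene's strand from 250 bases before to 50 bases after an annotated start. Capitals mark TGATGNAA, the core of the element that ATF4 is known to bind with C/EBP partners, and CACGTG, the E-box that Myc and its partners are known to bind.
Ears2, chr7:122067037-122067336, minus strand: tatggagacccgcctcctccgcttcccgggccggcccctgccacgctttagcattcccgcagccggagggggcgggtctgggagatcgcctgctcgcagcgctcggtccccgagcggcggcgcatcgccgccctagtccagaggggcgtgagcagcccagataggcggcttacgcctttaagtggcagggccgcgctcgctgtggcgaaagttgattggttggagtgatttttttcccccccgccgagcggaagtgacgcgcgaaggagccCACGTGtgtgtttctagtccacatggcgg
Iars, chr13:49681880-49682179, plus strand: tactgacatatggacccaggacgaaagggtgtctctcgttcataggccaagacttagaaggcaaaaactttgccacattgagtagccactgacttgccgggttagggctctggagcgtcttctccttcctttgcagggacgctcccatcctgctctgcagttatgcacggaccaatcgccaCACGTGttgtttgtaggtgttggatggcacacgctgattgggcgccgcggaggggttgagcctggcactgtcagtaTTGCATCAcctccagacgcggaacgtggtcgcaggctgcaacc
Tars, chr15:11399609-11399908, minus strand: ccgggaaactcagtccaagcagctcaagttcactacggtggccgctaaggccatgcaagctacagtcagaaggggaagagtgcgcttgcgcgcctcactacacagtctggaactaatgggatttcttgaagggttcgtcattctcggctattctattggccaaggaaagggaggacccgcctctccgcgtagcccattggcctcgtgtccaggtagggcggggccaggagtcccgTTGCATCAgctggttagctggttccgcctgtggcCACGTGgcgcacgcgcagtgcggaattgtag
Gars, chr6:55037751-55038050, plus strand: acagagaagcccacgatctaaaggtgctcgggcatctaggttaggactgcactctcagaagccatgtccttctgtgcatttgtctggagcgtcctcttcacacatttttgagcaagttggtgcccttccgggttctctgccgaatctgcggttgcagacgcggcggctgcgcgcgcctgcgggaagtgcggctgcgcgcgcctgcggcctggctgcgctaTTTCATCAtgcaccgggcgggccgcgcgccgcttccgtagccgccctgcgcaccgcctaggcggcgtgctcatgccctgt
Rars2, chr4:34614707-34615006, plus strand: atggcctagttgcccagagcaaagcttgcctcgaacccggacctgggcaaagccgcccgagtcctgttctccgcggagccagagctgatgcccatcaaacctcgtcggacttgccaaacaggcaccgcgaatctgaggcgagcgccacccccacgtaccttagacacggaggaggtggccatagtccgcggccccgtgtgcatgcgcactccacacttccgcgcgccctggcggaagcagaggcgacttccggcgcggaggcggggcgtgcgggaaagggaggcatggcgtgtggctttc
Aars2, chr17:45506582-45506881, plus strand: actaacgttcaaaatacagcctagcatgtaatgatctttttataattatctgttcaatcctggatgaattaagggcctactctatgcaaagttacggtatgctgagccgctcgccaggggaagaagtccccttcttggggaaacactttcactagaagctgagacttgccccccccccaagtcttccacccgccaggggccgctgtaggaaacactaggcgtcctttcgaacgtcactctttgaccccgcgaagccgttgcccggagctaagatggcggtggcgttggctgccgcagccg

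TGATGNAA, searched on both strands, stood in 5 of 31 promoters of 29 member genes (16.1%), against 3.97% of 32851 promoters in the table. The 5 were those of Aars, Gars, Iars, Tars and Yars, all cytosolic. In Iars it begins 8 bases into the transcript, in Tars 15 bases and in Gars 30 bases before the start. CACGTG, the same on both strands, was also in 5 member promoters (16.1%, and 7.15% of all), those of Aars, Ears2, Farsb, Iars and Tars. The STAT motif TTCNNNGAA, likewise the same on both strands, was in 4 (12.9%, and 8.30% of all), those of Aars, Eef1e1, Kars and Nars2. In the promoters shown no match overlaps another, and that of Ears2 holds CACGTG alone, 22 bases into the transcript, while those of Rars2 and Aars2 hold none of the 3 motifs. These are matches of letters and say nothing of binding.

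EPO raised 4 member probe sets in each stage and lowered none past the test. In stage E2 these were the probe set of Tars and probe sets of Nars, Rars and Mars2, with folds of 1.14 to 1.54. In stage E1 they were those of Ears2, Iars, Tars and Gars, with folds of 1.42 to 2.15. The test was limma's moderated test with the Benjamini-Hochberg adjustment over all 45037 probe sets, called at an adjusted p under 0.05. It took the arrays as unpaired. With the replicate number as block, 0 members passed in stage E1 and 1 (Tars) in stage E2. Over all probe sets, 2.54% were called higher and 2.08% lower in stage E2, and 0.804% higher and 0.36% lower in stage E1, against 4 of 76 (5.26%) members higher in each. At an unadjusted p under 0.05, limma gave 18 members higher and 4 lower in stage E2 and 21 higher and 0 lower in stage E1. Over all 45037 probe sets it gave 3517 higher and 3899 lower in stage E2, and 2262 higher and 1720 lower in stage E1. The one-tailed test named in the methods, with no adjustment, gave 6 members lower in stage E2 and 0 in stage E1. It was not counted over all probe sets.

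More members than those called lay higher with EPO. In stage E2, all EPO-challenged arrays lay above all unchallenged arrays in 22 member probe sets (28.9%), against 9.42% of all probe sets, and below them in 7. In stage E1 this separation held for 13 members (17.1%), against 3.28% of all probe sets, and in no member did all EPO-challenged arrays lie below. The share of all probe sets with EPO-challenged arrays below was not counted in either stage, so the counts below cannot be set against it. The log2 difference with EPO was above 0 in 44 of 76 members in stage E2 (57.9%, against 37.0% of all probe sets) and in 56 of 76 in stage E1 (73.7%, against 39.0%). The median over members was 0.046 in stage E2 and 0.26 in stage E1, where all probe sets had medians of -0.0049 and -0.0047. The stage E1 median was 0.15 after quantile normalization of the arrays.

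In stage E1, same-numbered arrays of both groups shared part of their deviations, and limma with the replicate number as block left 0 of the 4 member calls. It gave limma adjusted p-values of 0.0807 for Ears2, 0.0902 for Iars, 0.181 for Tars and 0.118 for Gars. Myeloid markers did not pass with EPO in stage E1 in any of their 9 probe sets, yet all 7 genes had estimates below 0 (-0.78 to -0.040), and their mean lay between 5.94 and 6.34 on EPO-challenged and between 6.26 and 6.59 on unchallenged arrays. Unchallenged replicate 1 had the lowest mean over the 38 member genes (-0.19, against 0.08 to 0.38 on the other unchallenged arrays and 0.42 to 0.57 on EPO-challenged ones). The part of these shifts in the result was not tested.

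**Figure D1:**
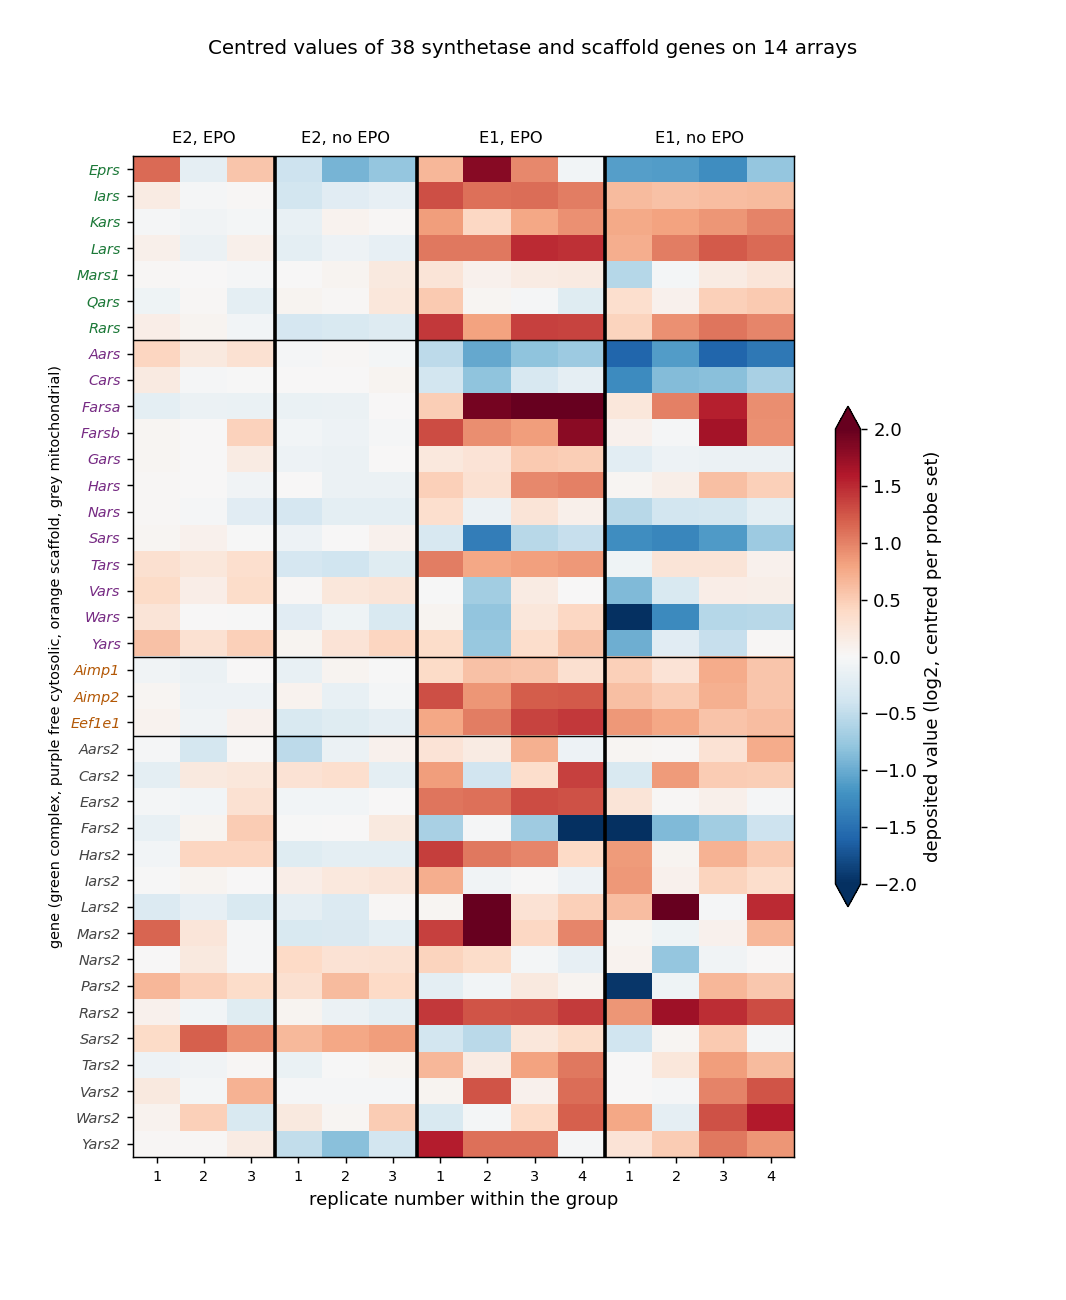
Centred log2 values of the 38 member genes (rows, 1 probe set each, chosen for its SD, the gene's largest) on each array (columns, by group and replicate number), with colours ending at values of 2 and -2. Stage E1 arrays spread further from 0 than stage E2 arrays, with Rars2 and Lars high and Aars low in stage E1.

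Of the 7 genes for enzymes of the multi-synthetase complex, Rars passed in stage E2 and Iars in stage E1. The call is 1 of 14 probe sets (7.14%) in each stage. Over all probe sets, 2.54% were called higher in E2 and 0.804% in E1. Iars, the isoleucyl-tRNA synthetase, had 1.29, 1.10, 1.12 and 1.02 on EPO-challenged E1 arrays, against 0.63, 0.58, 0.62 and 0.63 on unchallenged ones. The groups do not overlap, and the unchallenged arrays lie within a narrow band. The log2 difference was 0.52 (SE 0.06, limma adjusted p = 0.0117), and 0.30 with an adjusted p of 0.224 after quantile normalization. In stage E2, the same probe set had 0.17, -0.02 and 0.02 with EPO, against -0.37, -0.22 and -0.16 without. These groups do not overlap either, and the difference of 0.31 (SE 0.08) did not pass (limma adjusted p = 0.13). The other Iars probe set gave 0.32 in stage E2 and 0.41 in stage E1, neither past the test.

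Rars, the arginyl-tRNA synthetase, had 0.13, 0.05 and -0.05 on EPO-challenged E2 arrays, against -0.34, -0.30 and -0.26 on unchallenged ones. The groups are apart, with a difference of 0.35 (SE 0.05, limma adjusted p = 0.0412). In stage E1 the values were 1.41, 0.80, 1.36 and 1.35 with EPO and 0.45, 0.92, 1.07 and 0.97 without. There the groups overlap through EPO-challenged replicate 2, and the difference of 0.38 (SE 0.19) did not pass (limma adjusted p = 0.71). The stage E2 call was lost on leaving out EPO-challenged replicate 1 or 2 or any 1 unchallenged array of that stage (limma adjusted p 0.0794 to 0.141).

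Eprs, which joins glutamyl- and prolyl-tRNA synthetase in 1 protein, had the largest estimates of any member in a probe set that did not pass. It read 1.14, -0.18 and 0.55 with EPO in stage E2, against -0.42, -0.93 and -0.78 without, and 0.66, 1.82, 0.96 and -0.06 with EPO in stage E1, against -1.10, -1.12, -1.24 and -0.77 without. The groups do not overlap in either stage, but EPO-challenged arrays range widely. The differences were 1.21 (SE 0.38, limma adjusted p = 0.2) in E2 and 1.90 (SE 0.38, limma adjusted p = 0.0905) in E1. The gene's 3 other probe sets gave -0.22 to 0.55 in stage E2 and 0.29 to 0.57 in stage E1, so they differ in direction in stage E2.

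The other enzymes of the complex had small differences that did not pass. For the leucyl-tRNA synthetase Lars these were 0.18 (SE 0.07) in stage E2 and 0.24 (SE 0.15) in stage E1, and for the methionyl-tRNA synthetase Mars1 -0.08 (SE 0.05) and 0.22 (SE 0.18) in the same order. For the lysyl-tRNA synthetase Kars, which also serves mitochondria, they were -0.03 (SE 0.06) in E2 and -0.12 (SE 0.12) in E1. The glutaminyl-tRNA synthetase Qars had -0.19 (SE 0.08) in E2 and -0.28 (SE 0.18) in E1, and its 3 other probe sets lay between -0.17 and -0.01 in E2 and between -0.09 and -0.00 in E1.

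None of the 3 scaffold genes passed with EPO. Aimp2, a scaffold of the complex, had 0.04, -0.10 and -0.10 on EPO-challenged E2 arrays, against 0.07, -0.15 and -0.04 on unchallenged ones. In stage E1 it had 1.29, 0.88, 1.21 and 1.22 with EPO, against 0.60, 0.51, 0.71 and 0.56 without. The groups overlap in stage E2 and are apart in stage E1, where the difference of 0.55 (SE 0.10) gave a limma adjusted p of 0.0592. The other Aimp2 probe set gave -0.12 in E2 and 0.53 in E1. Eef1e1, also called AIMP3, had differences of 0.27 (SE 0.06) in E2 and 0.43 (SE 0.16) in E1, and Aimp1, the precursor of a secreted cytokine, had -0.02 (SE 0.07) and -0.05 (SE 0.11).

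**Figure D2:**
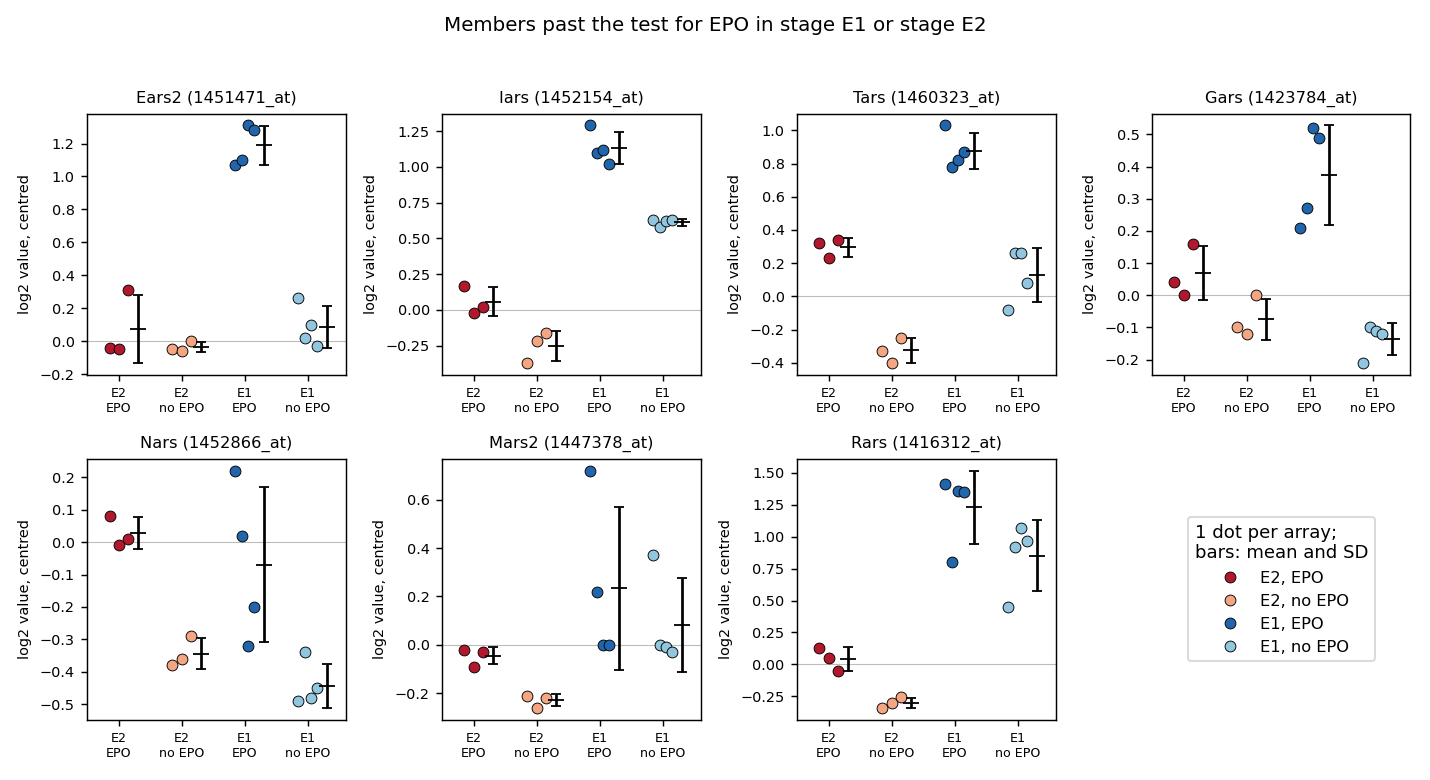
Centred log2 value (y axis) of each array for the 7 probe sets past the test with EPO in stage E2 or E1, with group means and SD as bars (n = 3 per E2 group, n = 4 per E1 group). EPO-challenged arrays lie above unchallenged ones in both stages for Tars, Iars, Gars and Nars, while for Ears2 they do so in stage E1 only among these arrays.

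Of the 12 genes for free cytosolic enzymes, 2 rose in each stage, Tars and Nars in E2 and Tars and Gars in E1, and 10 did not pass in each. Of their 26 probe sets, 2 (7.69%) were called higher in each stage, against 2.54% of all probe sets in E2 and 0.804% in E1. In stage E2, 20 of the 26 were above 0 (76.9%, against 37.0% of all probe sets). In stage E1, 25 were (96.2%, against 39.0%). The medians were 0.13 and 0.51. Tars, the threonyl-tRNA synthetase, passed in both stages, through its only probe set. It had 0.32, 0.23 and 0.34 on EPO-challenged E2 arrays, against -0.33, -0.40 and -0.25 on unchallenged ones. In stage E1 it had 1.03, 0.78, 0.82 and 0.87 with EPO, against -0.08, 0.26, 0.26 and 0.08 without. No EPO-challenged array overlaps the unchallenged arrays of its stage. Tars rose 1.54-fold in E2 (log2 difference 0.62, SE 0.05, limma adjusted p = 0.00868) and 1.68-fold in E1 (0.75, SE 0.09, limma adjusted p = 0.0178). The stage E2 call held under each alternative tried, the replicate block included (limma adjusted p = 0.0329). The stage E1 call was lost after quantile normalization (limma adjusted p = 0.0691) and without EPO-challenged replicate 3 or 4 or unchallenged replicate 4 (adjusted p 0.0595 to 0.0658).

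Gars, the glycyl-tRNA synthetase of both cytosol and mitochondria, had 0.21, 0.27, 0.52 and 0.49 on EPO-challenged E1 arrays, against -0.21, -0.10, -0.11 and -0.12 on unchallenged ones. The groups are apart, with a difference of 0.51 (SE 0.08, limma adjusted p = 0.0359). The call was lost on leaving out any single stage E1 array other than EPO-challenged replicate 1 (limma adjusted p 0.0595 to 0.109) and with each array centred on its median (0.0551). In stage E2 the values were 0.04, 0.00 and 0.16 with EPO and -0.10, -0.12 and -0.00 without, a difference of 0.15 (SE 0.06, limma adjusted p = 0.31) between groups that meet near 0.

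Nars, the asparaginyl-tRNA synthetase, passed in stage E2 through 1 of 2 probe sets. That probe set had 0.08, -0.01 and 0.01 with EPO, against -0.38, -0.36 and -0.29 without. The groups are apart, with a difference of 0.37 (SE 0.04, limma adjusted p = 0.0136), and the call was lost without unchallenged replicate 2 (0.0654). In stage E1 it had 0.22, 0.02, -0.32 and -0.20 with EPO and -0.49, -0.34, -0.48 and -0.45 without. The difference was again 0.37 (SE 0.12, limma adjusted p = 0.31), with EPO-challenged arrays spread widely. The other Nars probe set, with the larger SD, gave 0.17 (SE 0.08) in E2 and 0.51 (SE 0.12) in E1, neither past the test.

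Aars, the alanyl-tRNA synthetase, had 0.43, 0.19 and 0.30 on EPO-challenged E2 arrays, against -0.03, 0.03 and -0.04 on unchallenged ones, and -0.52, -1.03, -0.80 and -0.72 on EPO-challenged E1 arrays, against -1.59, -1.12, -1.59 and -1.43. The groups do not overlap in either stage. The differences of 0.32 (SE 0.07, limma adjusted p = 0.084) and 0.66 (SE 0.14, limma adjusted p = 0.121) did not pass, nor did those of its other probe set (0.29 and 0.58). The probe set that names Aars together with Exosc6, which cannot be given to either gene, did pass, with 1.10 in E2 (SE 0.14, limma adjusted p = 0.0232) and 1.26 in E1 (SE 0.18, limma adjusted p = 0.0294).

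The other free cytosolic enzymes did not pass in either stage. Wars, the tryptophanyl-tRNA synthetase, had 0.29 (SE 0.10) in E2 and 1.52 (SE 0.76) in E1, and its 3 other probe sets 0.03 to 0.31 and 0.64 to 1.07. The cysteinyl-tRNA synthetase Cars had 0.03 (SE 0.06) and 0.49 (SE 0.17), with -0.05 and -0.03 in its other probe set. The seryl-tRNA synthetase Sars had 0.04 (SE 0.06) in E2 and 0.42 (SE 0.25) in E1, with -0.05 and 0.54 in the other. The tyrosyl-tRNA synthetase Yars had 0.20 (SE 0.13) in E2 and 0.54 (SE 0.35) in E1, and the valyl-tRNA synthetase Vars 0.13 (SE 0.10) and 0.10 (SE 0.29). All of these estimates in the larger-SD probe sets are above 0, with E1 errors several times those of E2.

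Farsa and Farsb, the subunits of the phenylalanyl-tRNA synthetase, had -0.07 (SE 0.05) and 0.23 (SE 0.13) in stage E2, and 0.90 (SE 0.53) and 0.56 (SE 0.42) in stage E1. The 3 other Farsa probe sets gave -0.01 to -0.00 in E2 and 0.33 to 0.53 in E1, and the 3 other Farsb probe sets 0.01 to 0.12 and 0.10 to 0.27. The histidyl-tRNA synthetase Hars had 0.06 (SE 0.04) in E2 and 0.37 (SE 0.21) in E1, with 0.15 and 0.12 in its other probe set.

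Cytosolic enzymes were also split by whether their gene was written down as a known ATF4 target (13 genes) or not (Farsa, Farsb, Hars, Kars, Qars and Rars). In stage E2, all EPO-challenged arrays lay above all unchallenged ones in 12 of the 24 listed probe sets and in 4 of the 16 others, against 9.42% of all probe sets. In stage E1 this was so for 10 of 24 and 0 of 16, against 3.28%. The difference with EPO was above 0 in 19 of 24 listed and 7 of 16 other probe sets in E2 (medians 0.19 and -0.003), and in 23 of 24 and 11 of 16 in E1 (medians 0.51 and 0.23). Calls past the test, all higher, were 2 listed (8.33%) and 1 other (6.25%) in E2 and 3 listed (12.5%) and 0 others in E1. Over all probe sets, 2.54% were called higher in E2 and 0.804% in E1. The lists share the spread of the same arrays, and their difference was not tested. By the structural class of the catalytic domain, class I and class II each held 2 of the calls in either stage (4.76% of 42 and 6.67% of 30 probe sets).

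**Figure D3:**
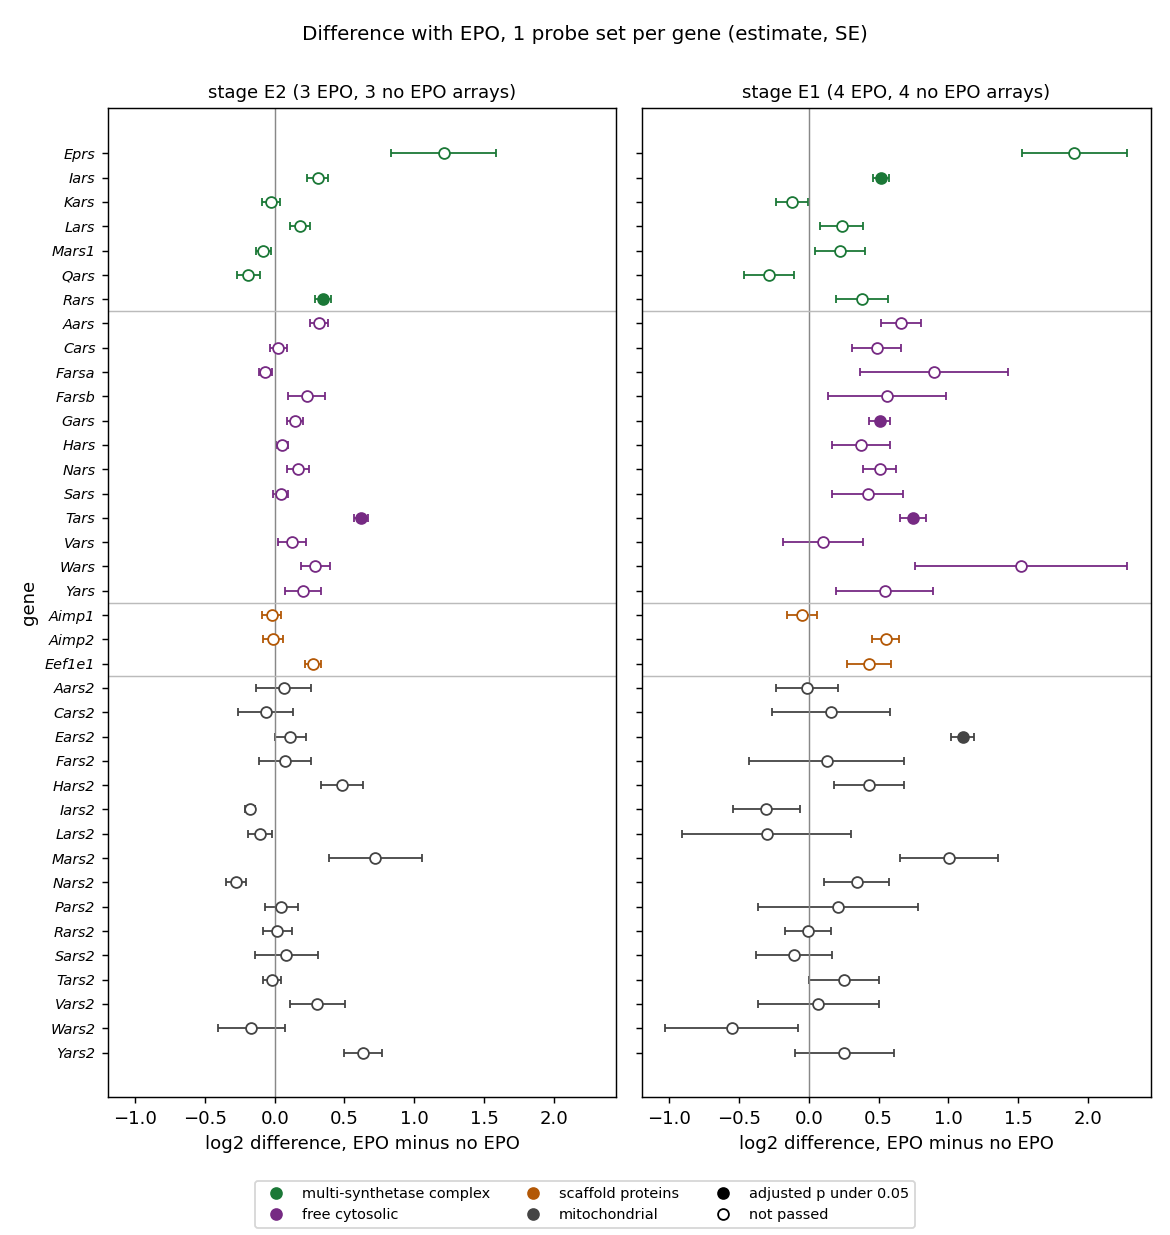
Log2 difference with EPO (x axis, EPO minus no EPO, estimate and SE) for each of the 38 genes (y axis, 1 probe set each, coloured by place), in stage E2 (left) and stage E1 (right), filled where limma's adjusted p is under 0.05. Free cytosolic enzymes lie mostly above 0 in both stages, and of the mitochondrial enzymes only Ears2 is filled in stage E1, with Mars2 next highest at 1.0 (SE 0.35).

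Of the 16 mitochondrial genes, Mars2 passed in stage E2 and Ears2 in stage E1, and 15 did not pass in each. The call is 1 of 32 probe sets (3.125%) in each stage. Over all probe sets, 2.54% were called higher in E2 and 0.804% in E1. The 32 mitochondrial probe sets had medians of 0.019 in E2 and 0.089 in E1. In stage E2 all EPO-challenged arrays lay above all unchallenged ones in 5 of them and below in 5. In stage E1 they lay above in 2 and below in 0. Over all probe sets they lay above in 9.42% in E2 and 3.28% in E1, and the share below was not counted. Ears2, which loads glutamate in mitochondria, had 1.07, 1.10, 1.31 and 1.28 on EPO-challenged E1 arrays, against 0.26, 0.02, 0.10 and -0.03 on unchallenged ones. The groups are far apart next to their spread. Ears2 rose 2.15-fold in E1 (log2 difference 1.10, SE 0.08, limma adjusted p = 0.00364), the largest rise past the test among members. In stage E2 the same probe set had -0.04, -0.05 and 0.31 with EPO, against -0.05, -0.06 and -0.00 without. There the groups overlap, 1 EPO-challenged array stands above the other two, and the difference was 0.11 (SE 0.11, limma adjusted p = 0.72).

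The other 3 Ears2 probe sets did not show such a rise. They gave -0.14 to -0.00 in stage E2 and 0.02 to 0.18 in stage E1, none past the test. The finding thus rests on 1 of 4 probe sets, and which transcripts each probe set reads was not determined here. The stage E1 call held in limma under the alternatives tried other than the replicate block, each left-out array included.

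Mars2, the mitochondrial methionyl-tRNA synthetase, had -0.02, -0.09 and -0.03 in the probe set that passed on EPO-challenged E2 arrays, against -0.21, -0.26 and -0.22 on unchallenged ones. The groups are apart by a small step, 0.18 (SE 0.02, limma adjusted p = 0.0269). In stage E1 the values were 0.72, 0.22, 0.00 and -0.00 with EPO and 0.37, -0.00, -0.01 and -0.03 without, overlapping groups with a difference of 0.15 (SE 0.18). The stage E2 call was lost without EPO-challenged replicate 1 or 3 or any unchallenged array (adjusted p 0.0728 to 0.0919). The other Mars2 probe set, with the larger SD, gave 0.72 (SE 0.33) in E2 and 1.0 (SE 0.35) in E1, and did not pass.

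Yars2, the mitochondrial tyrosyl-tRNA synthetase, had -0.02, 0.02 and 0.05 on EPO-challenged E2 arrays in 1 probe set, against -0.29, -0.44 and -0.05 on unchallenged ones. In stage E1 it had 1.0, 1.53, 1.44 and 1.20 with EPO, against 0.70, 0.72, 0.64 and 0.17 without. The groups do not overlap in either stage, but the differences of 0.27 (SE 0.11, limma adjusted p = 0.31) and 0.74 (SE 0.17, limma adjusted p = 0.139) did not pass. The other Yars2 probe set, with the larger SD, gave 0.63 (SE 0.14) in E2 and 0.26 (SE 0.36) in E1.

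The remaining mitochondrial enzymes, each named for its amino acid letter, did not pass with EPO. In stage E2 their larger-SD probe sets ran from -0.28 (Nars2) to 0.48 (Hars2), and in stage E1 from -0.55 (Wars2) to 0.43 (Hars2). In these probe sets, estimates were above 0 in both stages for Hars2 and Vars2 (0.30 in E2, 0.07 in E1). Those for Fars2 (0.07 and 0.13) and Pars2 (0.05 and 0.21) were too. The other probe set was below 0 in both stages for Fars2 (-0.06 in E2, -0.23 in E1) and for Vars2. That of Hars2 gave -0.17 in E2 and 0.26 in E1. Pars2 has 1 probe set, with unchallenged E1 replicate 1 at -1.95 and the other unchallenged E1 arrays at -0.09 to 0.66. Larger-SD estimates were below 0 in both for Iars2 (-0.18 and -0.31), Lars2 (-0.10 and -0.30) and Wars2 (-0.17 in E2). Here too the sign depended on the probe set. The other Iars2 probe set gave 0.06 in E2 and -0.06 in E1. A different Lars2 probe set had higher means with EPO in both stages, and the last one in E1 only. The other Wars2 probe set had a slightly higher mean with EPO in E1 and a lower one in E2. Cars2 (-0.07 and 0.16), Tars2 (-0.02 and 0.26), Nars2 (0.34 in E1), Aars2 (0.06 and -0.01), Sars2 (0.08 and -0.10) and Rars2 (0.02 and -0.00) differed in sign between the stages, and none of these differences of response passed (Nars2 at -0.62, SE 0.29, limma adjusted p = 0.714, was furthest from 0). The other probe sets of Cars2 and Tars2 had the reverse signs, and that of Nars2 was below 0 in both stages.

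The response of 1 member to EPO differed between the stages. In the joint limma fit of 14 arrays, the response of Ears2 in E2 minus that in E1 was -0.99 (SE 0.14, limma adjusted p = 0.0147), the only 1 of 76 member probe sets to pass, against 0.415% of all probe sets. Quantile normalization gave 3 higher (Eprs, Nars and Tars) and 1 lower (another Eprs probe set) in place of the 0 higher and 1 lower here. Ears2 did not pass after quantile normalization (-0.63, limma adjusted p = 0.072) or with the replicate block (adjusted p = 0.114). Next came Aimp2 (-0.56, SE 0.13, limma adjusted p = 0.14) and Gars (-0.36, SE 0.11, limma adjusted p = 0.27), which did not pass. Of the 76 differences of response, 24 were above 0, and their median was -0.16, with 36 above 0 and a median of -0.005 after quantile normalization. Across the 38 genes, whose changes come from separate arrays in the 2 stages, the response in E2 and that in E1 had a Pearson r of 0.67 and a Spearman rho of 0.60, against 0.47 and 0.24 over 18193 genes. Genes are not independent replicates, and the probe set of a gene was taken by a spread that includes the changes themselves. Both responses were above 0 in 23 genes and below 0 in 6, and the response in E1 was the larger in 25.

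Between the stages, members moved in both directions. Without EPO, 6 probe sets of 4 genes (Aars, Cars, Sars and Eprs) were higher in E2 than in E1 and 18 of 14 genes were lower, while 20 genes did not pass. Over all probe sets, 10.1% were called higher and 10.8% lower, against 7.89% and 23.7% of members. With EPO, 5 probe sets (Aars, Cars, Sars and Sars2) were higher and 22 of 17 genes lower, against 10.3% and 12% of all probe sets. The median log2 difference of members was -0.30 with EPO and -0.13 without, and all probe sets had medians of -0.027 in both.

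Marker transcripts of other blood cells also differed between the stages, although both were depleted of lineage-positive cells and selected for CD71. Between E2 and E1 without EPO, 6 of 7 myeloid marker genes were lower past the test, with S100a8 at -9.49, Mpo at -9.47 and Elane at -7.01, as were the mast cell and basophil markers Cpa3 and Mcpt8, and the 3 megakaryocyte markers Ppbp, Pf4 and Itga2b were higher. Of the B cell list, Ptprc, which most leukocytes carry, was lower (-3.97), and of the T cell list 0 of 3 genes passed. Of 7 erythroid marker genes 5 were higher and Kit lower. No gene of these 6 lists passed with EPO in either stage. The joint limma fit takes 1 spread per probe set for both stages, while the median SD between replicates was larger in stage E1 (0.0729 and 0.0934) than in stage E2 (0.0343 and 0.0317), so p-values between the stages may be too small. The stages were moreover taken at different culture days and selected by Kit. The part of these in every stage difference given here was not tested, and in arrays of whole samples fewer cells of a type and less RNA per cell cannot be told apart.

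Iars was the member with the smallest p-value between the stages, with -0.37, -0.22 and -0.16 on unchallenged E2 arrays, against 0.63, 0.58, 0.62 and 0.63 on unchallenged E1 arrays. The stages are apart, with a difference of -0.86 (SE 0.07, limma adjusted p = 4.19e-06). Of the complex, Lars, Kars and Rars fell likewise. Lars had -0.19, -0.10 and -0.17 in E2, against 0.73, 1.02, 1.23 and 1.13 in E1 (difference -1.18, SE 0.14, limma adjusted p = 8.67e-05). Kars had -0.15, 0.07 and 0.02 in E2, against 0.76, 0.81, 0.88 and 0.99 in E1 (-0.88, SE 0.11, limma adjusted p = 0.000113). None of these E2 arrays overlaps the E1 arrays.

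Rars, with its unchallenged values given above, differed by -1.15 (SE 0.16, limma adjusted p = 0.000355), and its stages do not overlap. Eprs was higher in 1 of 4 probe sets (0.56, SE 0.15, limma adjusted p = 0.0227), a call lost after quantile normalization (0.0892) and without any unchallenged E2 array (0.0582 to 0.0797). After quantile normalization another Eprs probe set was called lower. Mars1 (0.13, SE 0.15) and the 4 Qars probe sets (-0.25 to 0.02) did not pass. The scaffold genes were lower in E2, all 3 of them, by -0.95 (Eef1e1, SE 0.14, limma adjusted p = 0.000436), -0.64 (Aimp2 in 1 of 2 probe sets, SE 0.09, limma adjusted p = 0.000471) and -0.54 (Aimp1, SE 0.10, limma adjusted p = 0.00263). The other Aimp2 probe set had -0.14 (SE 0.16, limma adjusted p = 0.501).

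Among free cytosolic enzymes, Aars was higher in E2. Its unchallenged arrays had -0.03, 0.03 and -0.04 in E2, against -1.59, -1.12, -1.59 and -1.43 in E1, well apart (difference 1.42, SE 0.13, limma adjusted p = 1.45e-05), and its other probe set differed by 1.30. The probe set shared with Exosc6 went the other way (-0.78, SE 0.17, limma adjusted p = 0.00754). Sars was higher in both probe sets (1.10 and 1.03) and Cars in 1 of 2 (0.93, SE 0.15, limma adjusted p = 0.00106). Tars was lower (-0.45, SE 0.08, limma adjusted p = 0.0024), as were 2 of 4 Farsb probe sets (-0.56 and -0.51) and 1 of 2 Hars probe sets (-0.44). The 4 Wars probe sets (0.16 to 1.34), Yars (0.66, SE 0.31), Vars (0.41, SE 0.25), Gars (0.06, SE 0.07), the 2 Nars probe sets (0.12 and 0.10) and the 4 Farsa probe sets (-1.01 to 0.03) did not pass. The smaller Farsb difference was lost on leaving out any unchallenged E2 array or unchallenged E1 replicate 2, 3 or 4 (0.0511 to 0.0851), and the larger without unchallenged E2 replicate 2 (0.06). By the split above, 10 of 24 probe sets of the listed ATF4 targets passed, 6 higher (25%) and 4 lower (16.7%), and 5 of 16 others, all lower (31.25%). Over all probe sets, 10.1% were called higher and 10.8% lower.

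**Figure D4:**
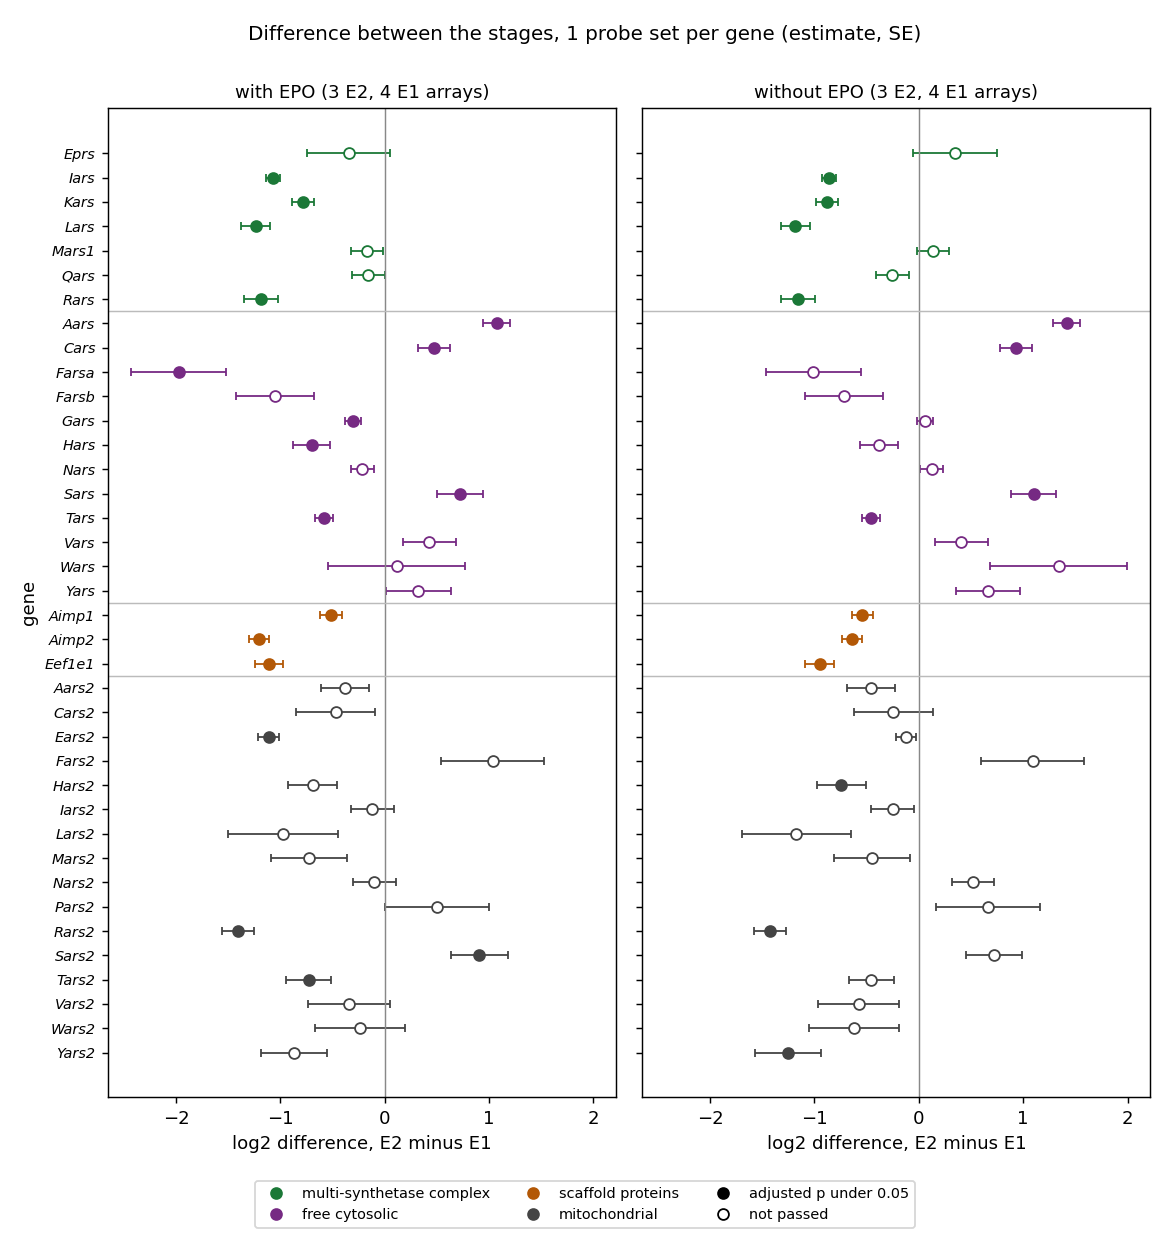
Log2 difference between the stages (x axis, E2 minus E1, estimate and SE) for each of the 38 genes (y axis, 1 probe set each, coloured by place), with EPO (left) and without EPO (right), filled where limma's adjusted p is under 0.05. Aars, Cars and Sars lie above 0 and the 3 scaffold genes below 0 in both panels.

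No mitochondrial enzyme was higher in E2 without EPO, and 6 probe sets of 4 genes (Rars2, Hars2, Tars2 and Yars2) were lower. The 6 are 18.75% of 32 probe sets, while 10.8% of all probe sets were lower and 10.1% higher. Rars2, the mitochondrial arginyl-tRNA synthetase, had 0.05, -0.12 and -0.19 in E2, against 0.89, 1.69, 1.47 and 1.31 in E1, with no overlap (-1.43, SE 0.16, limma adjusted p = 4.99e-05). Yars2 was lower in both probe sets (-1.25 and -0.81), Hars2 in both (-0.74 each) and Tars2 in 1 of 2 (-0.66). The Yars2 call at -1.25 was lost without unchallenged E2 replicate 2 (limma adjusted p = 0.0722), and the larger-SD Hars2 call on leaving out any of 10 arrays (0.0574 to 0.124). The other 12 did not pass. Above 0 were Sars2 at 0.72 (SE 0.27) and Pars2 at 0.66 (SE 0.50). So were the larger-SD probe sets of Fars2 at 1.09 (SE 0.49) and Nars2 at 0.52 (SE 0.20). The other Fars2 probe set had 0.16 (SE 0.14) and the other Nars2 probe set -0.10 (SE 0.04). The larger-SD Lars2 probe set was furthest below, at -1.17 (SE 0.52), but Lars2 probe sets differed in sign. The remaining ones had 0.62 (SE 0.25, limma adjusted p = 0.104) and -0.09 (SE 0.56). Lars2 was called higher when only the 22519 most variable probe sets were tested, and lower with array weights. With EPO, Ears2 was also lower in E2 (-1.11, SE 0.10, limma adjusted p = 9.8e-06) and Sars2 higher (0.91, SE 0.27, limma adjusted p = 0.0336). The Sars2 call was lost without EPO-challenged E1 replicate 1 or 2 or EPO-challenged E2 replicate 2 or 3 (0.0805 to 0.135), and with EPO those of Cars (limma adjusted p = 0.0494) and Sars (limma adjusted p = 0.0365) were lost on leaving out 11 (0.0627 to 0.166) and 7 (0.0505 to 0.104) of the 14 arrays, 1 at a time.

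Other genes of the pathway were read beside the members. Of 25 measured genes of the ATF4 response, 11 rose with EPO and 0 fell in each stage, where a gene counts if any of its probe sets passed. Of their 60 probe sets, 16 (26.7%) were called higher in E2 and 17 (28.3%) in E1, against 2.54% and 0.804% of all probe sets. Trib3, a pseudokinase that ATF4 is known to induce, rose by 0.94 in E2 (SE 0.09, limma adjusted p = 0.0116) and by 4.24 in E1 (SE 0.25, limma adjusted p = 0.00159), and the stress protein gene Nupr1 by 0.85 (SE 0.07) and 3.90 (SE 0.27). The glutathione-degrading enzyme Chac1 rose by 0.83 (SE 0.06) in E2 and 3.49 (SE 0.29) in E1. The amino acid transporter Slc7a1 rose by 2.05 in E1 (SE 0.24, limma adjusted p = 0.0141) and had 0.26 (SE 0.05, limma adjusted p = 0.084) in E2. Between the stages without EPO, 17 of these genes were higher in E2 and 3 (Phgdh, Psat1 and Xpot) lower, with Trib3 at 7.03 (SE 0.22). Of the 60 probe sets, 28 (46.7%) were higher and 8 (13.3%) lower, against 10.1% and 10.8% of all probe sets.

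Of 12 genes that handle charged tRNAs, Xpot, the tRNA exporter that the ATF4 list also holds, rose in both stages, and Pstk, which acts in making selenocysteine on its tRNA, fell in E2. Of their 24 probe sets, 1 (4.17%) was called higher and 1 lower in E2, against 2.54% and 2.08% of all probe sets. In E1, 2 (8.33%) were called higher, against 0.804%. Xpot had 0.76 in E1 (SE 0.12, limma adjusted p = 0.0404) and 0.61 in E2 in the same probe set (SE 0.11, limma adjusted p = 0.0531), where another probe set passed. Pstk had -0.46 in E2 (SE 0.07, limma adjusted p = 0.0397) and -0.41 in E1 (SE 0.20, limma adjusted p = 0.7). Of 17 cytosolic translation factor genes, 3 rose in E2 (Eif4a1, Etf1 and Gspt1) and 1 in E1 (Eif4e), with Gspt1, a release factor, at 1.73 in E2 (SE 0.13, limma adjusted p = 0.00677). Of their 51 probe sets, 6 (11.8%) were called higher in E2 and 1 (1.96%) in E1, against 2.54% and 0.804% of all probe sets. Of 9 mitochondrial translation factor genes, 1 fell in E2 (Gfm2, at -0.48, SE 0.07, limma adjusted p = 0.0313) and 0 passed in limma in E1, 0 of them with an unadjusted p below 0.05. The E2 call was 1 of 15 probe sets (6.67%), against 2.08% lower over all probe sets. Of the 4 kinases of eIF2, the haem-regulated Eif2ak1 fell with EPO in 1 probe set in E2, while its larger-SD probe set had 0.13 (SE 0.09), and none passed in E1. The E2 call was 1 of 13 kinase probe sets (7.69%), against 2.08% lower over all probe sets.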

How the data were processed

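RNA of 14 cell samples was hybridised to Affymetrix mouse arrays. According to the methods, array images were read with Affymetrix software and the authors normalized them by GC-RMA in GeneSpring GX 11.0. The deposited values were read as log2 values from their range and from the output of that method, since no source used here states the base of the logarithm. A constant was subtracted per probe set, so levels cannot be read. GC-RMA shrinks dim probe sets toward a common floor, so the spread of a dim probe set can be close to 0 and its fold change understated. Of the probe sets, 64 array controls were left out and 45037 were tested. The number of arrays limits the precision.

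Members were found by symbol, and the members and lists were chosen with earlier results of these data known. Of the 45037 probe sets, 34945 name 1 gene. A gene with several probe sets is drawn through whichever of them varied most (SD over 14 arrays, the EPO change included). Every member gene is named, and values in each array are given for the members with the smallest p-values in each comparison: up to 8 for EPO in stage E1, 4 for EPO in stage E2, 3 for the difference between the responses and 6 for the stages without EPO. Lists of the ATF4 response, charging partners, translation factors, eIF2 kinases and markers of erythroid, myeloid, B, T, megakaryocyte and mast cells were written from general knowledge. From each list up to 4 genes with the smallest p-value in stage E1 were to be named. Genes named beyond these were chosen after their values were seen.

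EPO-challenged and unchallenged arrays were compared within each stage (E2, 3 against 3, and E1, 4 against 4), in a fit of that stage alone. The difference between the responses and the stages were compared in a joint fit of 14 arrays. Fits used limma 3.58.1 in R 4.3.3, with Benjamini-Hochberg adjustment over 45037 probe sets and a threshold of 0.05. Tables were made with Python 3.11.15, pandas 2.3.3 and numpy 2.4.6. p-values measure the spread between the biological replicates. Alternatives were quantile normalization, median centring, array weights, trend and robust options, the probe sets with the largest SD, probe sets averaged per gene, a single fit of all arrays, the methods' one-tailed t-test, an added fold of 1.5, the replicate block and each array left out in turn.

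In stage E1, the same-numbered arrays of both groups correlated in their deviations from the group means over all probe sets (r of 0.195, 0.187, 0.173 and 0.152), so the numbers were taken to pair them by this check, although unchallenged replicate 4 correlated most with EPO-challenged replicate 3 (0.203). The labels do not say what a number stands for.

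The scripts were tested on simulated data. limma takes 1 spread per probe set, and stage E1 arrays spread more than stage E2 arrays. Where noise was drawn with 1 SD per probe set, calls of unchanged probe sets stayed near the nominal share. Where it was drawn with each group's own SD, they exceeded it several times over, most in comparisons of the stages, so that p-values of all comparisons, and of the stages most, may be too small. The first form was added after the second had given that excess. Promoter sequences came from RefSeq (GRCm38.p6), where all 38 member genes had a match and 29 had a promoter.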

Additional observations from a re-analysis of the deposited data

Results flagged for a closer look

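Among the 14 member probe sets whose array values are given, 28 groups of 4 arrays were searched for an array far from the others, and 4 were found. Chance alone gives about 1 in 20 such groups. In stage E1 without EPO, replicate 2 was low for Iars (0.5778, with the others at 0.62 to 0.63), replicate 4 was low for Yars2 (0.1659, against 0.64 to 0.72), and replicate 1 was high for Mars2 (0.3747, against -0.03 to -0.00). In stage E1 with EPO, replicate 2 was low for Rars (0.8031, against 1.35 to 1.41). The response of Ears2 to EPO differed between the stages in the joint limma fit (-0.9897, E2 minus E1), with all 4 EPO-challenged arrays above all unchallenged arrays in stage E1 and overlapping groups in stage E2.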

How the results depend on the processing

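No direction turned round under any alternative for the probe sets that passed. Another probe set of the same gene could pass the other way, as for Eprs between the stages after quantile normalization. Single calls held in 1052 instances and were lost in 108. Of counts of member calls, 144 lay within 1.5 times the count reported and 38 did not, and of medians 84 stayed and 4 moved by more than the spread between replicates. Where a value moved the cause was not tested, unless the alternative tests fewer arrays or probe sets.

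In stage E1, the 4 higher members became 11 with array weights, 10 in a single fit of 14 arrays, 2 after quantile normalization, 24 in the methods' one-tailed t-test without adjustment and 2 with a fold of at least 1.5. Leaving out an array gave 2 to 5, with 2 (Ears2 and Iars) without EPO-challenged replicate 3 and 2 without unchallenged replicate 4, and 0 members lower throughout. In stage E2, the 4 became 9 among the 22519 probe sets with the largest SD, 1 in the single fit, 21 in the methods' t-test, 2 in it after Benjamini-Hochberg adjustment and 1 with the added fold. Leaving out an array gave 1 to 3, with 2, 1 and 2 without unchallenged replicate 1, 2 or 3. The 0 lower became 6 in the methods' t-test and 1 (Nars2) for means of a gene's probe sets. Leaving out an array gave 0 to 2, with 1 (Nars2) without EPO-challenged replicate 2, 2 (Fars2 and Iars2) without unchallenged replicate 1 and 1 (Eprs) without unchallenged replicate 3. The methods' t-test was not counted over all probe sets, so its counts of members cannot be set against a general share.

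With the replicate number as a block, 0 members passed in stage E1, 1 (Tars) in stage E2 and 0 in the difference of responses. In stage E2 same-numbered arrays were not correlated (r of -0.061, -0.057 and -0.016). In the stage comparisons the block was entered otherwise, as a correlation between same-numbered arrays of 1 stage. It left 6 higher and 18 lower without EPO and 4 and 22 with EPO. Such blocks join no E2 array to an E1 array, so these counts say little of how the stage calls depend on pairing. The single member whose response differed became 4 with array weights and 4 after quantile normalization, and 1 to 2 on leaving out an array, with 2 without EPO-challenged E1 replicate 2 (Aimp2 added) and 2 without unchallenged E1 replicate 1 (Eprs added). Between the stages without EPO, the 6 higher became 10 among the probe sets with the largest SD, and leaving out an array gave 5 to 8 higher and 13 to 21 lower. With EPO, the 22 lower became 34 with array weights, and leaving out an array gave 19 to 26 lower and 2 to 6 higher. There 3 were higher without EPO-challenged E1 replicate 1, 2 or 3, EPO-challenged E2 replicate 1 or 2 or any unchallenged E2 array, and 2 without EPO-challenged E2 replicate 3.

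Medians over members moved to 0.15 in stage E1, -0.005 in the difference of responses and -0.18 between stages with EPO after quantile normalization, and to -0.25 between stages without EPO among the probe sets with the largest SD. The values carry no level, so which members lie near background, where GC-RMA compresses differences, could not be read.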

Other observations

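Tarsl2, a cytosolic threonyl-tRNA synthetase-like gene outside the symbol rule, did not pass in any of the 5 comparisons. Its log2 difference with EPO was -0.0047 (SE 0.060, limma adjusted p = 0.978) in stage E2 and -0.28 (SE 0.11, limma adjusted p = 0.523) in stage E1.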
